A study of Mus musculus with 24 samples.

Results

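The comparison covers daily injection of 4-phenylbutyrate (4PBA) in mice that keep Derlin-1, a membrane protein of the endoplasmic reticulum (ER). Of the 24 arrays of the study, 8 were chosen by their sample titles: 4 from Derlin-1 line controls that received 4PBA and 4 from Derlin-1 line controls that did not. All 8 samples came from C57BL/6 mice with homozygous floxed Derl1 alleles (Derlin-1flox/flox), and the labels name no Cre for them. Cre under the nestin promoter belongs to the knockout mice. Their arrays enter here through the estimate of the spread between replicates and through the choice of the probes tested. The mice were killed on postnatal day 28 and total RNA of the cerebellum was hybridised to Agilent microarrays, 1 per sample. 4PBA was injected daily into the peritoneal cavity at 200 mg/kg, beginning on postnatal day 14 and ending on day 28, and the vehicle was water.

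The 8 arrays fell into 2 series. The numbered series held controls with vehicle (replicates 1 and 2) and controls with 4PBA (1 and 2). The lettered series held controls for which no injection is named, called untreated below (a and b), and controls with 4PBA (a and b). Each series lay on a slide of its own. On both slides the upper row held the arrays without 4PBA and the lower row those with it, so slide row and injection cannot be told apart. The effect of 4PBA was therefore measured within each slide and averaged over both series with equal weight. The labels do not say whether samples came from separate animals or litters, so p-values measure only the spread between these samples, which may be technical.

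4PBA is a small aromatic fatty acid used in patients to remove nitrogen in disorders of the urea cycle. In cell culture it acts as a chemical chaperone that eases protein folding in the ER and as an inhibitor of class I and II histone deacetylases, the enzymes that remove acetyl groups from histones. The unfolded protein response is the set of transcripts that rises when unfolded proteins accumulate in the ER, and ER-associated degradation, in which Derlin-1 takes part, sends such proteins to the proteasome. The comparison gives the response of the cerebellum to 4PBA with Derlin-1 intact.

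Levels are log2 intensities relative to the 75th percentile of their array, and changes are differences of such levels with 4PBA minus without, so that 1 unit is a 2-fold change. That percentile was 896 to 1109 intensity units on the 8 arrays, and the scanner software marked 60.3% to 66.8% of their spots as well above background. Over genes well above background on all 8 arrays, arrays of a slide correlated with r between 0.991 and 0.997 whatever their treatment. Arrays of different slides correlated with r between 0.973 and 0.984. The tissue label held: the granule neuron markers, 13 of 13 of them measured, had a mean level between 3.79 and 4.10 per array, and the Purkinje cell markers, also 13 of 13, between 3.55 and 3.98. A gene is called measured below where its probe was well above background on all 8 arrays.

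No transcript measured on all 8 arrays passed the test for a change with 4PBA, and for most of them the data leave room for less than a 2-fold change. Of 16935 genes tested, 5 (0.0295%) were called at a Benjamini-Hochberg adjusted p under 0.05 in limma, 4 higher (0.0236%) and 1 lower (0.0059%), and none of the 5 was measured. Without adjustment, 355 genes (2.1%) had a p under 0.05, 185 higher and 170 lower. Among the 15085 measured genes (89.1% of those tested) the smallest adjusted p was 0.658, for Acsm5. The median standard error (SE) of a measured gene was 0.10, and 14684 of the 15085 (97.3%) had a 95% confidence interval that lay inside a 2-fold change in either direction. For 13374 (88.7%) the interval lay inside a 1.5-fold change. The number of calls moved with single arrays and with the fit: there were 23 without array 4PBA 1 and 25 without array 4PBA 2, among them the measured genes Zc3h8 (adjusted p 0.0222) in the first case and H1f1 (0.0441), Drd1 (0.00384) and P2ry12 (0.0216) in the second, and 0 under 5 alternative settings.

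The 5 called genes were dim, and each was well above background on only 2 of the 24 arrays, both of the same Derlin-1 control group. They passed the filter on dim probes through that group alone, so a difference from the other groups was built into their entry, and their p-values are given as a description. Siglec1 encodes the macrophage lectin CD169, Scgb2b24 a secretoglobin, Olfr769 an odorant receptor and Tdpoz1 a member of a clustered family of TRAF and BTB/POZ domain proteins; 4930452A19Rik has no function given here. Scgb2b24, Olfr769 and Tdpoz1 have close relatives in the genome, so their probes may read more than 1 gene. For a group with no array well above background a fold is given only as a lower bound; a fitted difference of such a gene is no measure of its size. The bound sets the mean of the bright arrays against the weakest signal that counted as well above background on each dim array, or against the dim probe itself where that was stronger.

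Scgb2b24 had levels of -8.11 and -8.05 with vehicle and -3.41 and -4.46 with 4PBA in the numbered series, and -8.28 and -8.44 untreated and -7.86 and -8.40 with 4PBA in the lettered series. Tdpoz1 had -8.03 and -7.92 with vehicle and -3.08 and -4.51 with 4PBA, then -8.17 and -8.34 untreated and -7.77 and -8.31 with 4PBA. Siglec1 had -8.01 and -7.92 with vehicle and -3.92 and -4.53 with 4PBA, then -8.18 and -8.36 untreated and -7.79 and -7.53 with 4PBA. All 3 rose on both numbered 4PBA arrays, by at least 3.71-fold for Scgb2b24, at least 4.08-fold for Tdpoz1 and at least 3.02-fold for Siglec1, and were not well above background on any lettered array. The fit gave adjusted p-values of 0.000155, 0.000651 and 0.0391 for their averages. A second Siglec1 probe stayed at background on all 8 arrays and read -6.43 and -6.39 with vehicle against -6.72 and -6.58 with 4PBA in the numbered series.

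Olfr769 had -4.74 and -4.25 with vehicle and -7.34 and -7.52 with 4PBA, and -7.99, -8.15, -7.55 and -8.08 on the lettered arrays. It fell at least 1.98-fold in the numbered series (adjusted p 0.000643 for the average). 4930452A19Rik was bright in the lettered series instead: it read -7.44 and -7.34 untreated and -4.05 and -4.41 with lettered 4PBA, a rise of at least 3.63-fold (adjusted p 0.00984 for the average), and between -8.02 and -6.89 on the 4 numbered arrays, none of them well above background. Thus 4 of the 5 calls came from the numbered slide and 1 from the lettered slide, and for none did both series give a measured change. Tested alone, the numbered series had 6 calls (0.0354%) and the lettered series 1 (0.0059%). In the Derlin-2 line controls on the remaining slide no array of any of the 5 was well above background.

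**Figure D1:**
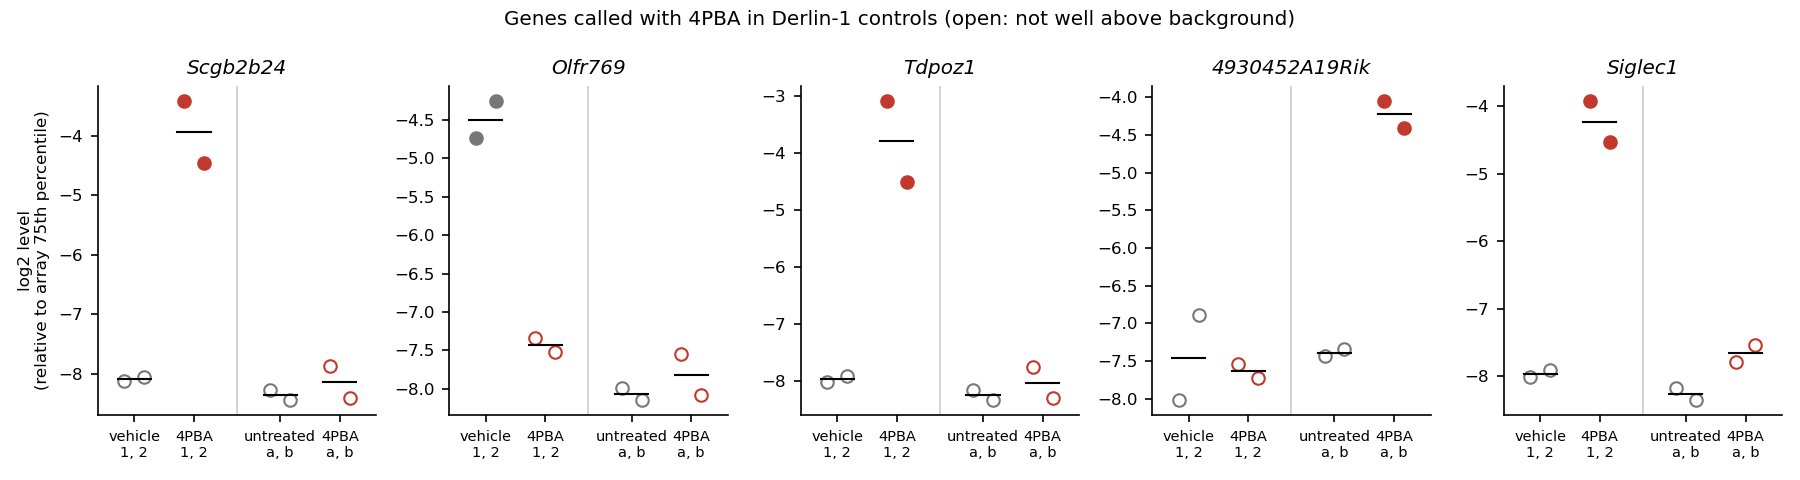
Levels (log2 intensity relative to the array's 75th percentile) of the 5 called genes on each of the 8 Derlin-1 control arrays, grey without and red with 4PBA; bars are means of 2 arrays and open circles are arrays on which the probe was not well above background. Scgb2b24, Tdpoz1 and Siglec1 are filled only on the numbered 4PBA arrays, Olfr769 only on the vehicle arrays and 4930452A19Rik only on the lettered 4PBA arrays.

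The effects of the numbered and lettered series, which share no array, had little in common across genes. Over the 15085 measured genes they correlated with r = 0.01, and 47.6% of genes had the same sign in both. Among all genes tested, 388 (2.29%) were apart in both series, meaning that both 4PBA arrays lay on the same side of both arrays without 4PBA on each slide, 174 of them higher (1.03%) and 214 lower (1.26%). Among measured genes 294 (1.95%) were apart, 122 higher and 172 lower. The difference between the series was called for 5 genes (0.0295%), with 269 (1.59%) at an unadjusted p under 0.05. Of the 5, each bright in 1 group only, 4 are among those called above and the other was Iqgap2, a scaffold protein that binds Rac and Cdc42. Iqgap2 had -7.87 and -7.42 with vehicle and -4.24 and -3.70 with 4PBA, and -7.38, -6.78, -7.60 and -8.14 on the lettered arrays. Iqgap2 was at least 3.61-fold higher with 4PBA in the numbered series alone, and not well above background on any lettered array.

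**Figure D2:**
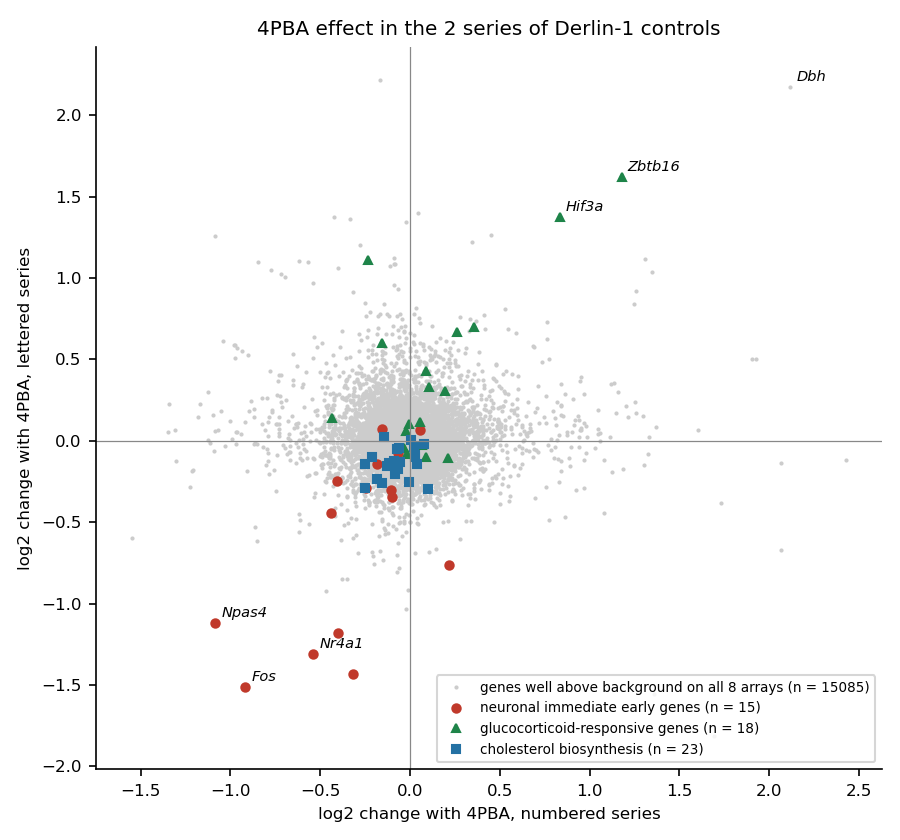
Change with 4PBA (log2) in the numbered series (x axis) against the lettered series (y axis) for the measured genes, with 3 gene lists in colour. Grey points spread along both axes with no common slope (r = 0.01), while Fos and Npas4 lie low and Zbtb16, Hif3a and Dbh lie high in both series.

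Of the measured genes, 14 had an averaged change past 2-fold, and none of them was called. The lowest estimate of all was that of Fos (-1.22), followed by Npas4 (-1.10) and Gjd3 (-1.07), a gap junction protein. The highest were Dbh (2.15), Zbtb16 (1.40), Pdyn (1.21), AW551984 (1.21), Acsm5 (1.20), Arhgap36 (1.19), Drd1 (1.16), Hif3a (1.11), LOC105247294 (1.09), Tac1 (1.05) and Nkx2-2os (1.03). Without array 4PBA 2 the estimates of Arhgap36, LOC105247294 and AW551984 were 0.513, 0.381 and 0.294. In the lettered series, which does not hold that array, they were 1.04, 0.92 and 1.12. The estimate of Nkx2-2os rested on the lettered series (2.22, against -0.17 in the numbered one). Fos and Npas4 are immediate early genes of neurons, Zbtb16 and Hif3a respond to glucocorticoids, and Dbh, Pdyn, Tac1 and Drd1 belong to transmitter systems that are sparse in the cerebellum. Each of these groups is described in turn; several of these genes were picked out after their values were seen.

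Neuronal immediate early genes are transcription factors and signalling regulators whose transcripts appear within minutes of synaptic activity and decay soon after. Of 17 on the list, 15 had a negative change with 4PBA against 8637 of 16935 genes (51.0%) in all, and the list's median was -0.27 against 0.00 over all genes. None was called in limma, and 5 had an unadjusted p under 0.05. Within series the median was -0.24 (numbered) and -0.34 (lettered), and 12 of the 17 (70.6%) were negative in both series, against 4242 of all 16935 genes. Fos, Fosb and Egr1, 3 of the 17, were apart and lower in both series, against 1.26% of all genes. Averaged over the list, the level was -0.05 and -0.26 with vehicle and -0.38 and -0.41 with 4PBA, and 0.24 and -0.04 untreated and -0.54 and -0.38 with 4PBA. All 4 arrays with 4PBA thus lay below both arrays without it on their slide. The 17 genes are induced together, so they are not independent of each other.

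Fos, a subunit of the AP-1 transcription factor, had levels of 2.52 and 1.73 with vehicle, 1.61 and 0.81 with 4PBA, 3.13 and 2.42 untreated and 1.14 and 1.38 with lettered 4PBA. Both 4PBA arrays lay below both others in each series, by a narrow margin on the numbered slide. The averaged change was -1.22 (SE 0.51, 95% interval -2.30 to -0.13), with an unadjusted p of 0.0306 and an adjusted p of 0.9999. Its relative Fosb, of the same subunit family, had -3.21 and -3.01, then -3.29 and -3.73, in the numbered series, and -2.25 and -2.07, then -3.49 and -3.19, in the lettered series, again without overlap. The change was -0.79 (SE 0.27, unadjusted p 0.0115, adjusted p 0.9999).

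The orphan nuclear receptor Nr4a1 had 3.19 and 2.62 with vehicle, 2.81 and 1.93 with 4PBA, 4.30 and 3.90 untreated and 2.50 and 3.08 with lettered 4PBA. The groups overlapped in the numbered series and were apart in the lettered one, with an averaged change of -0.92 (SE 0.33, unadjusted p 0.0153, adjusted p 0.9999). Nr4a2, of the same family, had 1.95 and 1.55 against 2.06 and 0.80, and 2.44 and 2.71 against 1.02 and 1.26, with the same pattern and a change of -0.88 (SE 0.35, unadjusted p 0.026). Npas4, a factor induced by calcium entry, had 0.26 and -1.57 with vehicle, -2.11 and -1.37 with 4PBA, 0.68 and 0.07 untreated and -1.12 and -0.37 with lettered 4PBA. Its vehicle arrays spanned most of this range, and the change of -1.10 (SE 0.59) had an unadjusted p of 0.0815. With 1 array left out Npas4 went to -0.647 (without vehicle array 1) and Nr4a2 to -0.563 (without array 4PBA 2).

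The other members showed smaller differences. Btg2, an antiproliferative gene, had a change of -0.27 (unadjusted p 0.0462), Ier2 of -0.33, Egr1 of -0.20, Jun of -0.16 and the phosphatase gene Dusp1 of -0.44. Without vehicle array 1 the sizes were smaller for Dusp1 (-0.165) and Btg2 (-0.158), as they were for Ier2 without untreated array a (-0.173) and for Jun without array 4PBA 2 (-0.0910). Egr2 and Homer1 were the 2 members with a positive change. In the Derlin-2 controls the list's median was -0.01, against -0.04 over all genes there. Of the 17 members 9 were negative there, against 10086 of 16928 genes. Fos in the Derlin-2 controls had 1.67 and 1.95 with vehicle against 1.27 and 1.39 with 4PBA. The difference between the effects in the 2 lines of controls was -0.74 for Fos (SE 0.88, adjusted p 0.9999) and -0.98 for Nr4a1 (SE 0.58, adjusted p 0.9999), so a difference between the lines was not detected.

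The promoters of these genes are known to hold sites for CREB, a factor switched on by cyclic AMP and calcium. The 250 bases upstream of the start site (RefSeq, GRCm38.p6) were searched on both strands for TGACG, the core of the CREB site, and for the full palindrome TGACGTCA, which contains it. Of the 17 immediate early genes 13 had an entry, and 11 of these (84.6%) held TGACG, against 3635 of 13342 tested genes with an entry (27.2%). The palindrome was in 2 of the 13 (15.4%), Btg2 and Dusp1, against 2.76%. The sequences of the 4 members with the lowest or best separated values are shown 5' to 3' in the gene's direction, with each TGACG, or CGTCA where it lies on the other strand, in capitals; a match describes the sequence only.

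Fos (chr12:85473640-85473889, plus strand): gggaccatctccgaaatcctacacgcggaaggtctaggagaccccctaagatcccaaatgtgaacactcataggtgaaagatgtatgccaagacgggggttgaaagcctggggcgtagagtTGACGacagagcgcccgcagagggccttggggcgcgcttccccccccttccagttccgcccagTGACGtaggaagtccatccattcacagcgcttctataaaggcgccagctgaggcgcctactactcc
Fosb (chr7:19310046-19310295, minus strand): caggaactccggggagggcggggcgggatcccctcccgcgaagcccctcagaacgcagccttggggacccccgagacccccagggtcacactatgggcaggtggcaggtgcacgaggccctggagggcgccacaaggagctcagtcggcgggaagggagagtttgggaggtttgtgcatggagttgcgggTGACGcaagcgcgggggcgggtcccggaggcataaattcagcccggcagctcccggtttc
Nr4a1 (chr15:101266596-101266845, plus strand): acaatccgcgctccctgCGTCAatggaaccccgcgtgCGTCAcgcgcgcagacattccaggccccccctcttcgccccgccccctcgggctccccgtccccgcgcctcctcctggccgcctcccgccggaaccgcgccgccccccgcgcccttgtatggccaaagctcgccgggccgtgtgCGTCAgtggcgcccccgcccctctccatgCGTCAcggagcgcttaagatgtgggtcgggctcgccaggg
Npas4 (chr19:4989972-4990221, minus strand): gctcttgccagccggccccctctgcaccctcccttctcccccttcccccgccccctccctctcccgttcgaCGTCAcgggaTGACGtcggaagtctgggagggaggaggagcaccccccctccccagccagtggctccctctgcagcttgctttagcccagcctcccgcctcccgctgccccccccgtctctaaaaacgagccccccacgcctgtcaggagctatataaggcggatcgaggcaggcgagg

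**Figure D3:**
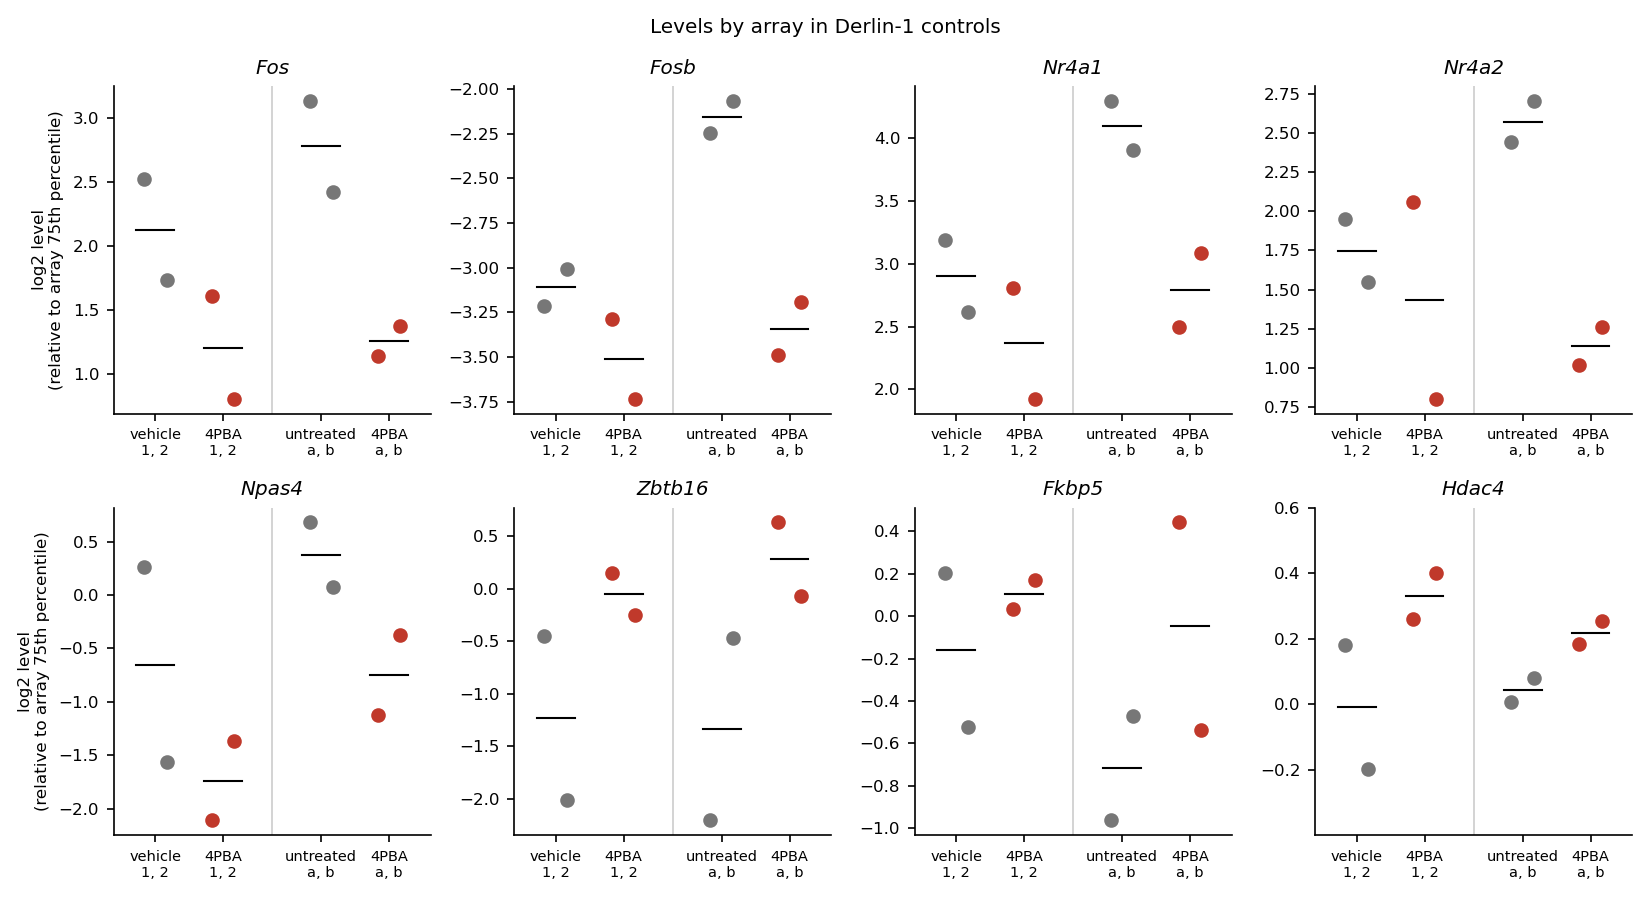
Levels (log2 intensity relative to the array's 75th percentile) of 5 immediate early genes, 2 glucocorticoid-responsive genes and Hdac4 on each Derlin-1 control array, grey without and red with 4PBA; bars are means of 2 arrays. Fos and Fosb lie lower and Zbtb16 and Hdac4 higher on the red arrays of both series, and Nr4a1, Nr4a2, Npas4 and Fkbp5 overlap between groups in at least 1 series.

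Glucocorticoid-responsive genes are induced in brain when corticosterone binds its nuclear receptor. Of 18 on the list, all measured, 14 had a positive change and the median was 0.15, or 0.0258 without array 4PBA a and 0.298 without vehicle array 1. None was called in limma, and 1, Zbtb16, had an unadjusted p under 0.05. Zbtb16, a zinc finger repressor and one of the most responsive of them, had -0.45 and -2.02 with vehicle, 0.15 and -0.25 with 4PBA, -2.21 and -0.47 untreated and 0.63 and -0.07 with lettered 4PBA. Both 4PBA arrays were above both others in each series, but the arrays without 4PBA differed from each other by more than a 2-fold step on either slide. The change was 1.40 (SE 0.44, 95% interval 0.46 to 2.34, unadjusted p 0.00649, adjusted p 0.9999). A second Zbtb16 probe, well above background on 6 of 8 arrays, gave 1.46.

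Hif3a, a hypoxia-inducible factor subunit that glucocorticoids raise, had -1.34 and -3.58 with vehicle against -1.22 and -2.03 with 4PBA, and -2.79 and -0.87 untreated against -0.36 and -0.56 with 4PBA. The groups overlapped in the numbered series, and the change was 1.11 (SE 0.54, unadjusted p 0.0601). The kinase gene Map3k6 had a change of 0.53, Fkbp5, a chaperone partner of the glucocorticoid receptor, of 0.47, Sgk1 of 0.26 and Tsc22d3 of 0.25. With 1 array left out these sizes went as low as 0.547 for Hif3a and 0.0697 for Tsc22d3 (without vehicle array 2), 0.258 for Map3k6 and 0.0828 for Sgk1 (without untreated array a) and 0.221 for Fkbp5 (without array 4PBA a). On vehicle array 2 and untreated array a, Zbtb16, Hif3a, Map3k6 and Fkbp5 all had their lowest level among the 4 control arrays of the slide. In the Derlin-2 controls the list had the opposite sign, with a median of -0.23 against -0.04 over all genes there. Of its members 15 of 17 were negative, against 10086 of 16928 genes. Zbtb16 read -0.29 and -0.02 with vehicle against -1.20 and -0.57 with 4PBA in these controls. For Zbtb16 the effects in the 2 lines of controls differed by 2.13 (SE 0.76, unadjusted p 0.014, adjusted p 0.9999).

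Histone deacetylases were examined as the enzymes that 4PBA inhibits. All 10 class I and II members were measured, and the list's median was 0.00. None was called in limma, and Hdac4 was the 1 member with an unadjusted p under 0.05. Hdac4, a class IIa enzyme that shuttles between nucleus and cytoplasm, had 0.18 and -0.20 with vehicle, 0.26 and 0.40 with 4PBA, 0.01 and 0.08 untreated and 0.18 and 0.25 with lettered 4PBA. The 4PBA arrays were higher without overlap in both series, by 0.26 (SE 0.09, 95% interval 0.06 to 0.45, unadjusted p 0.0133, adjusted p 0.9999), and its second probe gave the same difference of 0.26. Without vehicle array 2 the difference was 0.161. Hdac9 had 0.10 and Hdac7 -0.07, with intervals of -0.15 to 0.36 and -0.40 to 0.25, and 0.0022 (Hdac9, without array 4PBA 2) and 0.0533 (Hdac7, without array 4PBA a) with 1 array left out.

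Genes known to rise when histone deacetylases are inhibited in cultured cells were more often negative than positive here. Of 18, 12 had a negative change, against 51.0% of all genes. The median was -0.05 (-0.152 to -0.0181 with 1 array left out). None was called in limma, and 2, Hspa1b and Gadd45b, had an unadjusted p under 0.05. Hspa1b, an inducible heat shock chaperone, had -0.96 and -0.85 with vehicle, -1.08 and -1.07 with 4PBA, -0.55 and -1.11 untreated and -1.51 and -1.32 with lettered 4PBA. These groups did not overlap on either slide, with a change of -0.38 (SE 0.14, unadjusted p 0.0148, adjusted p 0.9999). Gadd45b, a stress and activity response gene, had a change of -0.30 (SE 0.12, unadjusted p 0.0294), and H1f0, a linker histone long used as a readout of these inhibitors, of -0.31 (SE 0.16, 95% interval -0.66 to 0.04). H1f0 had -0.183 without array 4PBA 1, and Hspa1b -0.237 without untreated array a. In the Derlin-2 controls Hspa1b had 0.59 and Gadd45b 0.33. The difference between the lines was -0.97 for Hspa1b (SE 0.24, unadjusted p 0.00104, adjusted p 0.587) and -0.62 for Gadd45b (SE 0.21, adjusted p 0.9999).

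Protein folding genes, of interest for a chemical chaperone, had small estimates. The unfolded protein response list had a median of 0.06 (-0.0024 with arrays scaled to their median) with 14 of 25 positive, no member called in limma and 0 with an unadjusted p under 0.05. Its largest estimates were Ern1 (0.26, SE 0.23), the sensor kinase that splices Xbp1, the secreted chaperone Manf (0.18, SE 0.21) and Xbp1 itself (0.17, SE 0.13). Without array 4PBA 2 the change of Ern1 was 0.0220, while the lettered series, which does not hold that array, gave 0.29. Manf had 0.09996 without vehicle array 1. Of 25 genes of ER-associated degradation 14 were positive, and the median was 0.01 (-0.0477 to 0.0639 with 1 array left out). No member was called or had an unadjusted p under 0.05 in limma. Derl1 and Derl2 had changes of 0.01 (SE 0.15) and -0.02 (SE 0.20). Derl3, the inducible relative of Derlin-1, had a change of -0.43 (SE 0.39) and the mannosidase-like Edem2 and Edem1 had 0.35 (SE 0.17) and 0.14 (SE 0.12). Edem2 rested on array 4PBA 1, without which it had 0.113, and it had 0.04 in the lettered series; Derl3 had -0.279 without vehicle array 2 and Edem1 0.0794 without array 4PBA b. Cytosolic heat shock genes had a median of -0.04 with 13 of 20 negative, and the median was 0.07 in the numbered series and -0.10 in the lettered one. The inducible Hspa1b had -0.38 (SE 0.14), Hspa1a -0.18 (SE 0.12) and Hsp90aa1 -0.13 (SE 0.09), and Hspa1a had -0.0499 without untreated array a. Among oxidative stress genes 12 of 18 were positive with a median of 0.02 (-0.0502 to 0.0870 with 1 array left out). Mt2 had 0.22 and Gsta4 0.14 (0.0303 and 0.0391 without array 4PBA a), and Slc7a11 -0.16 (-0.0624 without untreated array a).

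Lipid genes were examined because 4PBA is broken down like a fatty acid and can activate fatty acid receptors. Of 23 cholesterol synthesis genes tested (25 listed) 21 had a negative change, with a median of -0.11 (-0.148 to -0.0508 with 1 array left out, the smallest size without untreated array a); 4 of the 23 were apart and lower in both series, against 1.26% of all genes, and none was called in limma, with 1 at an unadjusted p under 0.05. The largest sizes were those of Hsd17b7, Sqle and Insig1. Hsd17b7, a sterol reductase, had 1.42 and 1.44 with vehicle, 1.05 and 1.31 with 4PBA, 1.07 and 1.102 untreated and 0.82 and 0.78 with lettered 4PBA. It was lower without overlap in both series, by 0.27 on average (change -0.27, SE 0.08, unadjusted p 0.00471, adjusted p 0.9999). Sqle, the squalene epoxidase, had -0.21 (SE 0.10) and Insig1, which holds the sterol sensor in the ER, -0.21 (SE 0.11). Without array 4PBA 1 Sqle had -0.0990, and without array 4PBA b Insig1 had -0.112. The median in the Derlin-2 controls was -0.13, with 18 of 23 negative. Over all genes there the median was -0.04, with 10086 of 16928 negative.

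Fatty acid synthesis and desaturation genes split evenly, 8 positive and 8 negative. The delta-6 desaturase Fads2 had -0.82 and -0.80 with vehicle, -0.51 and -0.12 with 4PBA, -0.38 and -0.51 untreated and -0.24 and -0.41 with lettered 4PBA. It was apart in the numbered series and overlapped in the lettered one, with a change of 0.31 (SE 0.10, unadjusted p 0.00887, adjusted p 0.9999). Elovl7 had -0.16 (0.0354 without untreated array a) and Acss2 -0.12 (-0.0287 without array 4PBA b). Of 27 tested fatty acid oxidation genes and PPAR targets, 13 were positive and 14 negative, with a median of 0.00. Ppargc1a, the coactivator of mitochondrial biogenesis, had 2.11 and 1.91 against 1.76 and 1.88, and 1.55 and 1.65 against 1.25 and 1.24, lower without overlap by a small margin (change -0.27, SE 0.08, unadjusted p 0.0034, adjusted p 0.9999). Fabp7 had -0.29 (-0.162 without array 4PBA a). Genes of ammonia and glutamine handling, of interest because 4PBA draws on glutamine for its excretion, had a median of 0.02 (-0.0504 with arrays scaled to their median) with 9 of 15 positive; Slc38a5, a glutamine transporter, had -0.32 (SE 0.17) and Slc1a5 0.11, and without untreated array a they had -0.176 and -0.0091.

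Among the 122 measured genes that were higher without overlap in both series, the one with the smallest p was Acsm5, a medium-chain acyl-CoA synthetase that can activate short aromatic acids. It had -3.95 and -4.83 with vehicle, -2.22 and -2.74 with 4PBA, -4.80 and -4.52 untreated and -3.84 and -4.47 with lettered 4PBA. The gap was wide in the numbered series and narrow in the lettered one, with an averaged change of 1.20 (SE 0.27, 95% interval 0.63 to 1.78, unadjusted p 0.000505, adjusted p 0.658). In the Derlin-2 controls its change was 0.21, and the difference between the lines was 0.99 (SE 0.46, adjusted p 0.9999).

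The other 11 of the 12 higher genes with the smallest p had changes from 0.20 to 1.40 and adjusted p-values of 0.9999. Besides Zbtb16 they were H1f1 (0.73), a replication-dependent linker histone, Gm41 (0.75), the cell cycle factor Foxm1 (0.47), the cyclin-dependent kinase regulator Cables1 (0.47), Gm16367 (0.40), Zc3h8 (0.40), Fstl5 (0.38), Sipa1l2 (0.33), Wrap73 (0.22) and the clathrin adaptor Gga1 (0.20). H1f1 had -4.47 and -4.57 with vehicle against -2.78 and -3.94 with 4PBA, and -5.23 and -5.13 untreated against -4.87 and -4.88 with 4PBA. In the numbered series array 4PBA 1 lay well above array 4PBA 2, and without array 4PBA 1 the change of H1f1 was 0.441. The change of Zc3h8 ran from 0.250 to 0.547 with 1 array left out. Foxm1 had nearly equal changes of 0.48 and 0.46 in the numbered and lettered series, and -0.24 in the Derlin-2 controls.

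The 12 lower genes were Nol8 (-0.40), Ppargc1a, the chromatin protein Hmgb1 (-0.27), Hsd17b7, the secreted protease gene Adamts18 (-0.34), Lyar (-0.31), the vesicle fusion ATPase Nsf (-0.20), Rbbp8nl (-0.69), Htatsf1 (-0.25), Csmd3 (-0.31), Gjd3 (-1.07) and the ribosome assembly GTPase Efl1 (-0.20). Nol8, a nucleolar protein needed for ribosomal RNA processing, had 0.18 and -0.03 with vehicle, -0.16 and -0.35 with 4PBA, -0.79 and -0.76 untreated and -1.29 and -1.21 with lettered 4PBA. It was the lower gene with the smallest p (SE 0.10, unadjusted p 0.00124, adjusted p 0.9999). Nol8, Lyar and Efl1 all act in the making of ribosomes; they were put together after their values were seen. Gjd3 had -3.49 and -2.25 against -4.82 and -4.01, and -4.02 and -4.34 against -4.76 and -4.79. The change of Gjd3 in the Derlin-2 controls was -2.21 (adjusted p 0.231). With 1 array left out the change of Rbbp8nl ran from -0.932 to -0.458.

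**Figure D4:**
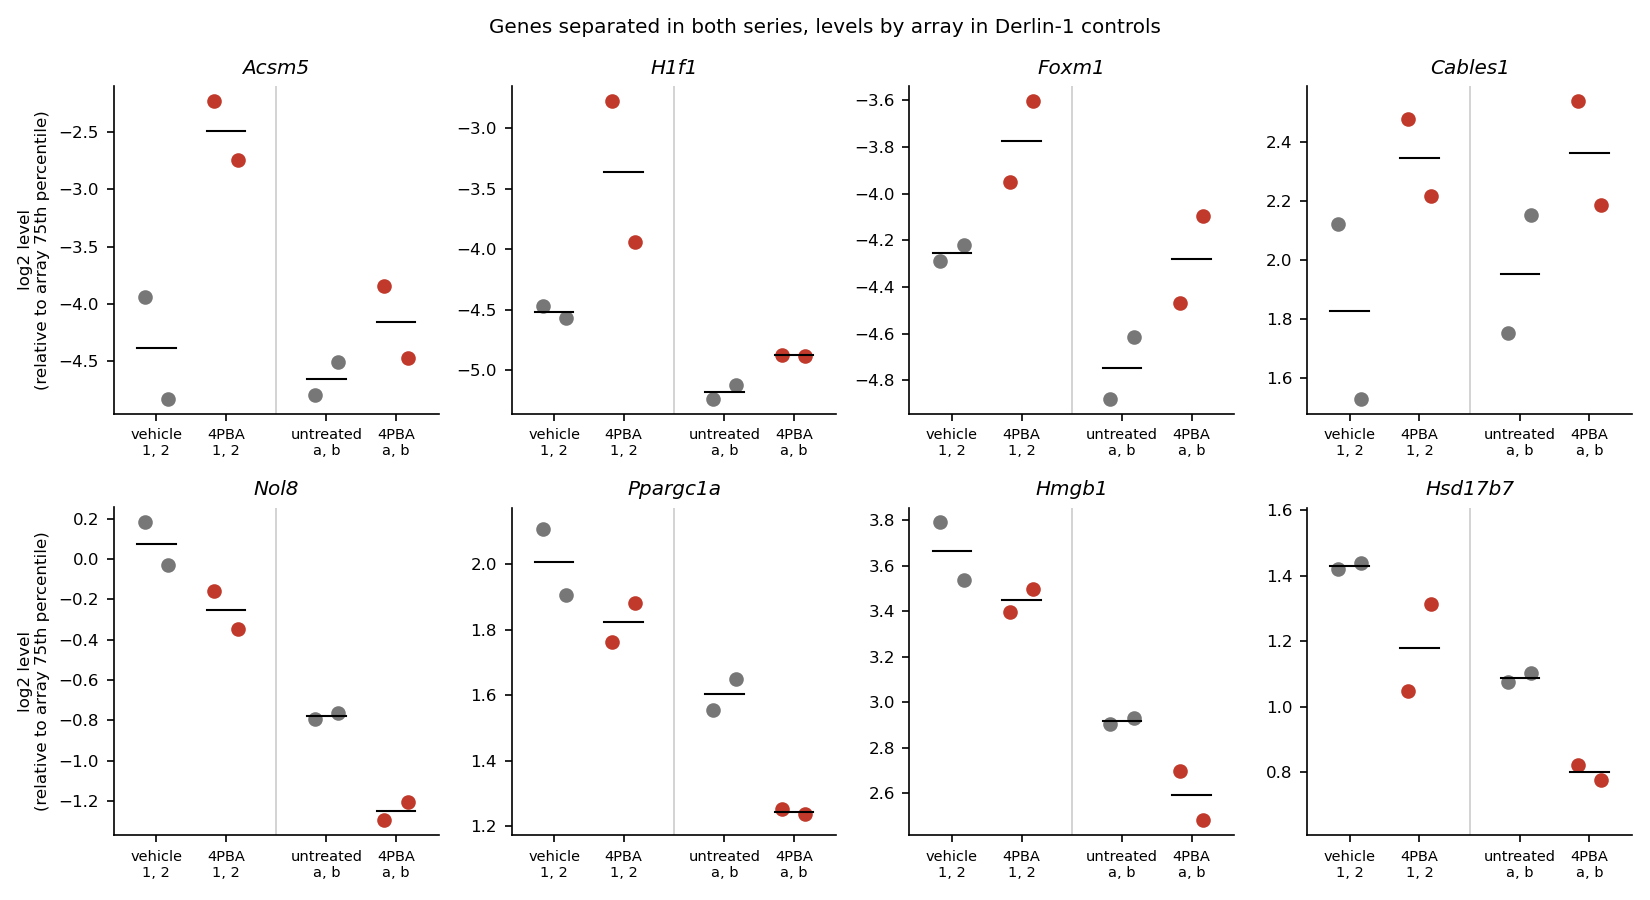
Levels (log2 intensity relative to the array's 75th percentile) of 4 higher and 4 lower measured genes whose groups did not overlap in either series, on each Derlin-1 control array, grey without and red with 4PBA; bars are means of 2 arrays. The red arrays lie on the same side of the grey ones in both series for all 8 genes, which were picked on that pattern.

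Cell type markers varied little with 4PBA in the main cell classes of the cerebellum. In bulk tissue, fewer cells of a type and less RNA per cell cannot be told apart. The medians were -0.02 for granule neurons (9 of 13 negative), -0.04 for Purkinje cells (12 of 13 negative), -0.04 for interneurons (8 of 10 negative), -0.02 for astrocytes and Bergmann glia (6 of 11 negative), -0.01 for myelin (7 of 14 negative) and 0.04 for microglia (9 of 14 positive), and in limma no member of these lists was called or had an unadjusted p under 0.05. Oligodendrocyte precursor markers had a median of -0.03 with 6 of 9 negative. With 1 array left out the medians of all these lists took either sign, that of Purkinje cells from -0.110 to 0.0231 (positive without array 4PBA b). Blood vessel markers had a median of -0.14 with 11 of 13 negative. With 1 array left out that median was -0.168 to -0.0568, the smallest size without untreated array a. Meningeal fibroblast markers had a median of -0.05 with 6 of 10 negative (-0.132 to 0.0093 with 1 array left out). Of 14 markers of peripheral macrophages and lymphocytes 11 were tested, 6 of them positive with a median of 0.15, which was -0.03 in the numbered series, 0.39 in the lettered one and -0.0694 with no filter on dim probes. Of these 11 genes 1, Siglec1, was called (0.0295% of all genes tested were), one of the dim genes described above that passed the filter through the numbered 4PBA arrays alone, and 5 of 22 alternatives kept its call. The microglial receptor gene P2ry12 had -1.50 and -1.52 with vehicle against -0.09 and -1.36 with 4PBA, and -1.63 and -1.89 untreated against -1.62 and -1.87 with 4PBA, so its change of 0.40 (SE 0.19) rested on array 4PBA 1 (0.0828 without it).

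Markers of tissue that borders the cerebellum varied between arrays. Choroid plexus and ependyma markers had list means of 0.35 and 0.91 with vehicle, 1.25 and -0.77 with 4PBA, 1.16 and -1.18 untreated and 0.45 and 0.48 with lettered 4PBA. The spread between replicates (SD 1.11) exceeded the median change of 0.03. Red blood cell transcripts had list means from 2.53 to 4.27, with a median change of -0.73 in the numbered series and 0.45 in the lettered one. Of 13 markers of neighbouring brain regions 10 were tested and 7 measured. They had list means of -2.63 and -2.38 with vehicle against -2.37 and -1.63 with 4PBA, and -2.64 and -2.82 untreated against -2.40 with both lettered 4PBA arrays. All 4 arrays with 4PBA were above both arrays without it, and 9 of the 10 genes had a positive change with a median of 0.13. The margin was narrow in the numbered series, -2.368 on array 4PBA 1 against -2.378 on vehicle array 2, and without array 4PBA 2 the median turned to -0.0306 (0.362 without array 4PBA 1). None was called in limma.

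Single arrays stood out within that list and among genes like it. Dbh encodes dopamine beta-hydroxylase, which makes noradrenaline, and its transcript marks noradrenergic neurons of the brainstem. It had -4.09 and -3.63 with vehicle, -4.65 and 1.17 with 4PBA, -3.93 and -3.72 untreated and -0.93 and -2.37 with lettered 4PBA, with a change of 2.15 (SE 1.15, 95% interval -0.32 to 4.61, unadjusted p 0.0834). It was highest on array 4PBA 2, and above both untreated arrays on both lettered 4PBA arrays, but lowest of all on array 4PBA 1.

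The noradrenaline transporter gene Slc6a2 followed the same arrays, at -1.73 on 4PBA 2, -3.74 on 4PBA a and -4.85 on 4PBA b, and was not well above background on the other 5. The neuropeptide genes Pdyn and Tac1 were also highest on 4PBA 2, at -0.35 and -0.38, against -4.79 and -3.53 on 4PBA 1. The dopamine receptor gene Drd1 stood out on another array, at -0.88 on 4PBA 1 and -3.96 on 4PBA 2 against -5.05 to -4.25 on the other 6. Leaving out array 4PBA 2 took the change of Dbh to 0.690, of Tac1 to 0.258 and of Pdyn to 0.104, and leaving out array 4PBA 1 took that of Drd1 to 0.388. The part of bordering tissue in the changes of the immediate early and glucocorticoid-responsive genes was not tested.

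**Figure D5:**
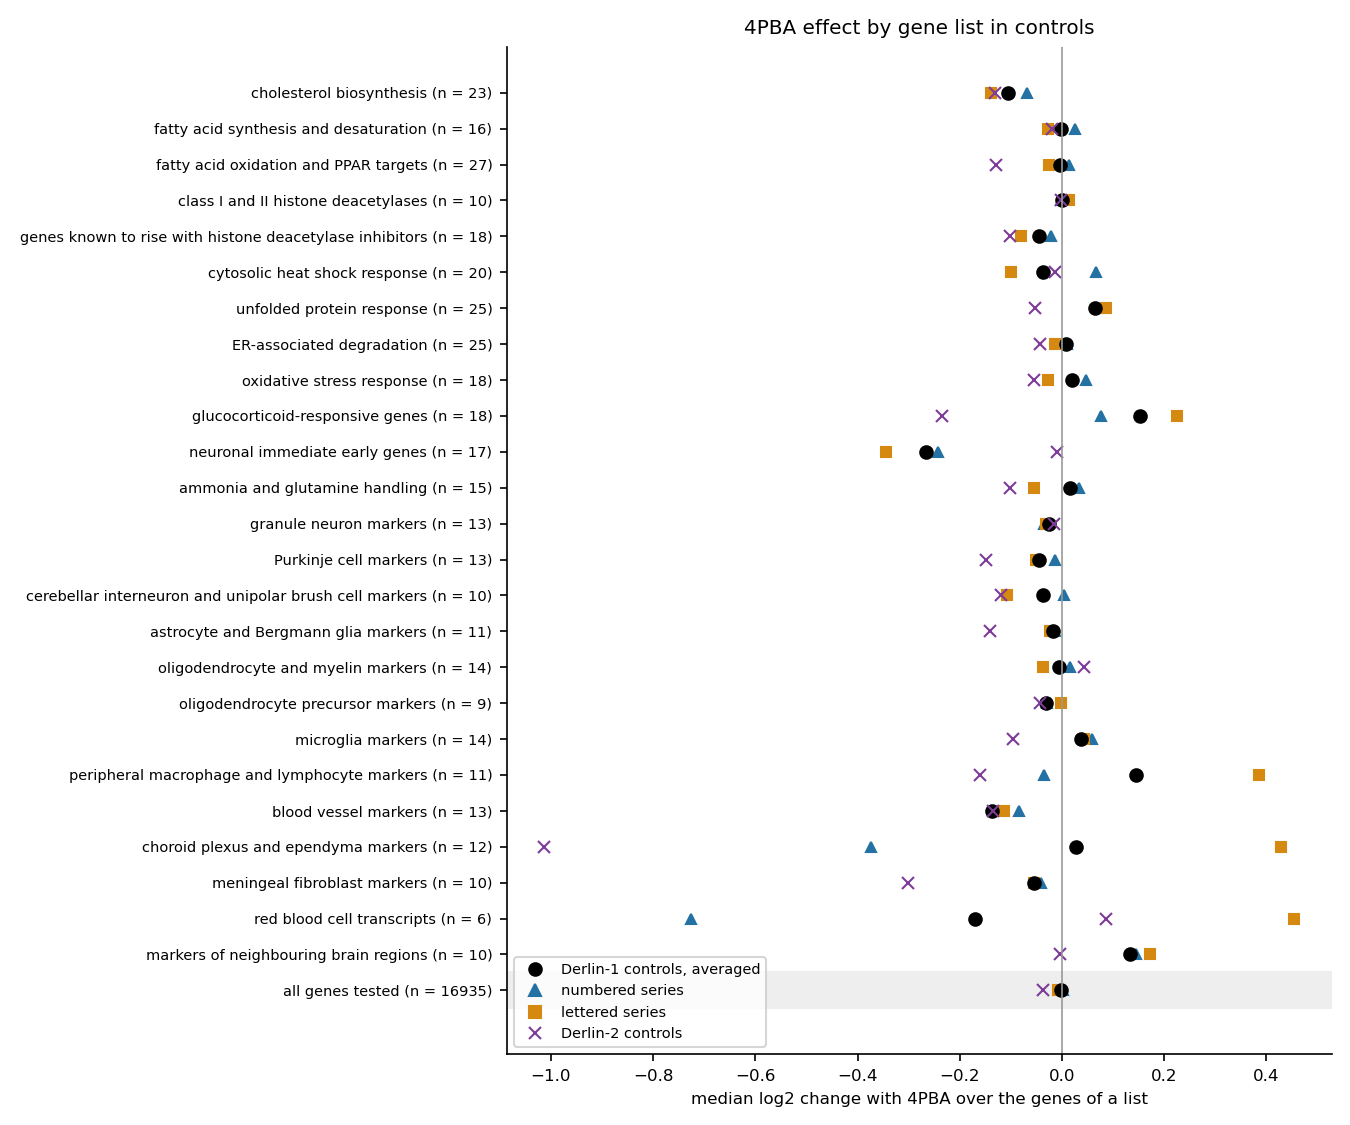
Median change with 4PBA (log2) over the tested genes of each list in Derlin-1 controls (black circles), in the numbered and lettered series (triangles and squares) and in Derlin-2 controls (crosses), with all genes at the bottom. The immediate early genes lie lowest among the functional lists at -0.27 and the glucocorticoid-responsive genes highest at 0.15, and the choroid plexus and red blood cell lists have opposite signs in the 2 series.

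The controls of the Derlin-2 line, 2 with vehicle and 2 with 4PBA on a slide of their own, received the same treatment. They carry floxed Derl2 alleles (Derlin-2flox/flox) and share no array with the Derlin-1 controls. There 22 of 16928 genes (0.13%) were called and 874 (5.16%) had an unadjusted p under 0.05. The count was 5 among genes well above background on all 8 Derlin-1 control arrays, 1279 with no filter on dim probes and 17 to 51 with 1 array left out (51 without Derlin-2 array 4PBA 2). None of the 5 genes called in the Derlin-1 controls was well above background on any of those 4 arrays. The difference between the effects of 4PBA in the 2 lines was called for 5 genes (0.0295%), with 533 (3.15%) at an unadjusted p under 0.05; the count was 2 without untreated array a of the Derlin-1 controls and 23 and 24 without Derlin-2 arrays 4PBA 2 and vehicle 1. Of these 5, Gm8013, measured on all 8 Derlin-1 control arrays, differed by 3.39 (SE 0.39, adjusted p 0.00676) with a change of -0.13 in the Derlin-1 controls and -3.53 in the Derlin-2 controls. Serpinb9f, Pudp and 4930595M18Rik were not well above background on any of the 8 Derlin-1 control arrays, and Olfr769 on none of the 4 Derlin-2 control arrays, so the size of their difference between lines was not measured.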

How the data were processed

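Cy3-labelled cerebellar RNA (150 ng per sample) was read with Agilent Feature Extraction 10.7.1.1, per the file headers. Levels start from the deposited processed signal, a background-corrected linear intensity per the file headers; the authors' series-wide deposited values were the same intensities (largest log2 difference 1.74e-06 over 56305 single-spot probes). Control spots were left out, 59305 spots per array remained, outlier-flagged spots (58 to 291 per array) were missing, and spots were averaged into 56605 probes, 32994 of them named through their RefSeq accession. Each array's 75th percentile of log2 signal was subtracted. A probe was kept if both arrays of at least 1 of 12 groups were well above background, and each gene was represented by its brightest probe.

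All 24 arrays (3 slides of 8) entered 1 model with a mean per group in limma 3.58.1 (R 4.3.3), with 12 residual and 2.13 prior degrees of freedom. The 4PBA contrast was taken within each slide and averaged. Tests were two-sided, with Benjamini-Hochberg adjustment over all genes and a threshold of 0.05; every adjusted p is limma's. The code was tested on simulated data. Precision is limited by having 2 arrays per group.

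The 25 gene lists, the named genes and the comparison were chosen with earlier results of these data known. Named genes were all called genes, the 12 higher and 12 lower measured genes with the smallest p among those apart in both series, the 3 measured members of each functional list with the largest change, and genes called for a difference between series or lines; others were named after their values were seen. Some genes these rules pick are not reported here. Lists are described by counts and medians, with no test. The files held no mean signal, so normexp correction, an alternative, used the median signal. Same-numbered arrays deviated together in the lettered series (r = 0.50 over genes) and not in the numbered one (r = -0.09), so the numbers were not taken to pair samples; same-numbered arrays also share a slide column. Promoter sequences came from RefSeq (GRCm38.p6). The headers name another genome build, so no probe coordinates are given.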

Additional observations from a re-analysis of the deposited data

Results flagged for a closer look

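The fitted effect of 4PBA differed between the numbered and the lettered series for 5 genes, each well above background on 2 of the 24 arrays, both of 1 group. They passed the filter on dim probes only through that group, so a difference was built into their entry, and the fitted values, set against readings at background, do not measure its size. Numbered minus lettered on the log2 scale, these were 3.92 for Scgb2b24 (adjusted p 0.000317), -3.19 for Olfr769 (0.000139), 3.96 for Tdpoz1 (0.00235), -3.34 for 4930452A19Rik (0.00264) and 4.47 for Iqgap2 (0.00405).

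The fitted effect differed between Derlin-1 and Derlin-2 controls in 5 results, with Olfr769 among them again. Gm8013, measured on all 8 Derlin-1 control arrays and well above background in both Derlin-2 control groups, differed by 3.39 (Derlin-1 minus Derlin-2, SE 0.39, adjusted p 0.00676). For the other 4 the limits of the first group hold, since each was well above background on 2 of the 24 arrays: the fitted values were -2.11 for Olfr769, 3.36 for Serpinb9f (adjusted p 0.033), 3.25 for Pudp (adjusted p 0.0323) and 2.57 for 4930595M18Rik (adjusted p 0.0185). Serpinb9f, Pudp and 4930595M18Rik were well above background on both Derlin-2 vehicle arrays and on neither Derlin-2 4PBA array, where they were at least 1.33-fold, at least 1.59-fold and at least 1.18-fold lower.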

How the results depend on the processing

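With 2 arrays per group and a dim probe behind each of the 5 averaged calls, the number of calls moved with the processing. The 5 calls for the averaged effect became 3 with arrays scaled to their median, 9 with no filter on dim probes and 1 in the lettered series only. Calls numbered 0 with normexp correction (262 genes at an unadjusted p under 0.05), with genes measured on all 8 arrays only (238), with only the 8 arrays (314), with slide and 4PBA as additive terms (316) and with a trended, robust limma fit (314). A common floor under all signals, chosen after seeing the data, gave 2. The replicate block gave 3 calls for the averaged effect, 9 in Derlin-2 controls and 3 for the difference between lines, and Siglec1 and 4930452A19Rik were the calls lost (adjusted p 0.0921 and 0.0699). Leaving out 1 array gave 3 to 25 calls for the averaged effect: 10 without vehicle 1, 23 without 4PBA 1, 25 without 4PBA 2 and 3 without untreated a. For the difference between series the 5 calls became 0 with normexp (163 unadjusted), with genes measured on all 8 arrays (173), with only the 8 arrays (267) and with the trended fit (229), 9 with no filter, 3 with the floor, and 5 to 29 with 1 array left out (9 without vehicle 1, 19 without 4PBA 1, 29 without 4PBA 2, 8 without 4PBA b). In Derlin-2 controls the 22 calls became 11 with normexp, 1279 with no filter, 5 with genes measured on all 8 arrays, 9 with the trended fit and 17 to 51 with 1 array left out (51 without Derlin-2 4PBA 2). For the difference between lines the 5 calls became 8 with quantile normalization, 21 with no filter, 1 with genes measured on all 8 arrays, 1 with the trended fit, 14 with the floor and 2 to 24 with 1 array left out (24, 13, 11 and 23 without each Derlin-2 array, 8 without 4PBA 2, 2 without untreated a and 3 without untreated b). Scgb2b24, Olfr769 and Tdpoz1 passed the threshold under 16 of 22 alternatives, 4930452A19Rik under 11 and Siglec1 under 5. Single genes passed it without 1 array (Zc3h8 and Serpinb9f without 4PBA 1; H1f1, Drd1 and P2ry12 without 4PBA 2) or, for Iqgap2, in the numbered series only. Scaling to the array median moved list medians to -0.0675 for histone deacetylases, -0.10 for heat shock, -0.0024 for the unfolded protein response, -0.0504 for ammonia handling, -0.0918 for granule neurons, -0.10 for interneurons and -0.10 for oligodendrocyte precursors. With no filter the peripheral macrophage median was -0.0694. In the numbered series only, medians were 0.0656 for heat shock, 0.0048 for interneurons and -0.73 for red blood cells, and in the lettered series only -0.0544 for ammonia handling, -0.11 for interneurons, 0.39 for peripheral macrophages and 0.45 for red blood cells. Leaving out 1 array gave medians of -0.15 to -0.0181 for genes raised by deacetylase inhibitors, -0.0578 to 0.0255 for granule neurons, -0.0630 to 0.0096 for interneurons and -0.0871 to 0.0560 for oligodendrocyte precursors. The immediate early gene median stayed negative under every alternative run (-0.37 to -0.19). Signs turned for 4930595M18Rik with normexp (-0.0929), for Siglec1 with no filter, where a second probe represents it (-0.45), in the numbered series only for 4930452A19Rik (-0.18), Hdac9 (-0.0576) and Nkx2-2os (-0.17), in the lettered series only for Olfr769 (0.26), Iqgap2 (-0.79) and Drd1 (-0.12), and with 1 array left out for Gm8013 (-0.43 to 0.16), Elovl7 (-0.35 to 0.0354), Hdac7 (-0.20 to 0.0533) and Slc1a5 (-0.0091 to 0.23). The cause was not tested.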
